A study of Homo sapiens with 3 samples.

Results

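The 32 genes described here encode enzymes that build cholesterol and fatty acids, with 4 regulators and transport proteins of the same system. They were taken by name from the deposited tables, which list 18692 gene symbols in all, and all 32 were listed and reached 1 CPM (counts-per-million, the share of the library's UMIs) in at least 1 library. The list holds 7 enzymes of the isoprenoid stem of the pathway, 11 enzymes that make and finish the sterol rings, the 4 regulators and transport proteins, and 10 fatty acid enzymes. The first and second of these sets are called the 18 sterol enzymes below.

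H460 is an established human large-cell lung carcinoma line, and mdR-H460 and ldR-H460 are its mid-term and long-term derivatives by reprogramming. Each of the 3 cultures was profiled as 1 library of single cells by counting unique molecular identifiers (UMIs) at the 3′ ends of polyadenylated RNA. The labels' growth protocol describes reprogramming on human fibroblasts stopped by irradiation and a change from serum medium to a pluripotency medium. The text is cut short, and the sources used here do not give the medium of each culture at harvest. No genetic alteration or agent beyond this is named for the groups, and whether a derivative is 1 clone is not given.

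Values given as a series of 3 follow the order H460, mdR-H460, ldR-H460. The tables held 4531, 5151 and 4956 cells, with 60468481 to 66624830 UMIs per library and medians of 11736 to 14685 UMIs per cell. Pairs of libraries shared 24 to 36 cell barcodes. KRT8 and KRT18, keratins of simple epithelia, were at 459 to 1755 CPM in every library, KRT19 was at 1696, 194 and 40.3 CPM and KRT7 at 57.8, 184 and 108. EPCAM, another epithelial marker, was at 0.132 to 0.347 CPM, under the minimum of 1 CPM for a measured gene, and CDH1 was not listed. Of 10 fibroblast markers, 7 were listed and their sum was 15.6, 3.90 and 5.95 CPM, with COL1A2 at 0 in both H460 and mdR-H460. With 1 library per group there is no replicate, so no difference between cultures has a test or a p-value, and every interval given is a 95% interval for counting error only. The tags lie at transcript ends, so levels were not divided by gene length and are compared between libraries, not between genes.

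As background, cholesterol and unsaturated fatty acid synthesis are controlled together by membrane-bound transcription factors, the SREBPs, which are encoded by SREBF1 and SREBF2. When sterol in the endoplasmic reticulum is plentiful, INSIG proteins hold the SREBP escort protein SCAP there. When sterol is short, SCAP carries the factors to the Golgi, where proteases release the part that enters the nucleus and switches on the enzyme genes. SREBF2 products act mainly on sterol genes and SREBF1 products mainly on fatty acid genes, and proliferating tumour cells draw on both branches for membranes.

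The promoters of IDI1, HMGCS1 and INSIG1 are shown because each of these genes had a higher level in 1 set of cells, described further on, and that of FDPS because its level was lower there. The sequences are the parts of the RefSeq window (GRCh38.p14, from 250 bases before to 50 after a gene's start) that hold no annotated exon, written 5′ to 3′ along the gene. Capitals mark exact matches of CCAAT or GGGCGG on either strand, so ATTGG and CCGCCC are the same motifs read on the other strand.
HMGCS1, chr5:43313513-43313662, minus strand: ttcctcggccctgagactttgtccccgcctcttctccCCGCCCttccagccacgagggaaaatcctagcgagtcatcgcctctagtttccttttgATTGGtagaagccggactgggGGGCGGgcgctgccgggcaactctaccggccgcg
IDI1, chr10:1049171-1049369, minus strand: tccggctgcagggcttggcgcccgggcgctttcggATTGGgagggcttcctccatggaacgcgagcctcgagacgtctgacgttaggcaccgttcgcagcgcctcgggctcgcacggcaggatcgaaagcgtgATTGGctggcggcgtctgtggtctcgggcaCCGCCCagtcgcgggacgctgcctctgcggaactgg
INSIG1, chr7:155297628-155297775, plus strand: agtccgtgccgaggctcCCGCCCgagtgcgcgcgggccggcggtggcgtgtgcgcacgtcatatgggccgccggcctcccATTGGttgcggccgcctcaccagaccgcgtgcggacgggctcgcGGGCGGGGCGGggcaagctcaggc
FDPS, chr1:155308616-155308747, plus strand: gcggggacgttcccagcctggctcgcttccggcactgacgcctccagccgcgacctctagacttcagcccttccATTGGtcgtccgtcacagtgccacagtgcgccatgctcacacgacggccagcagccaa
The IDI1 stretch holds 2 CCAAT matches and 1 GGGCGG match, that of HMGCS1 holds 1 and 2, that of INSIG1 holds 1 and 3 (the last pair of GGGCGG matches overlap), and that of FDPS holds 1 and 0. Where a gene had more than 1 window or stretch, the one with most matches is shown. The full windows of these stretches, exon included, hold 2 and 1 for IDI1, 2 and 2 for HMGCS1, 1 and 6 for INSIG1. That of FDPS holds 3 and 1.

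Promoter windows matched 28 of the 32 genes by symbol. CCAAT was found in 23 of these 28 genes and in 39.7% of the 27305 genes with a window, and GGGCGG in 26 of 28 and in 48.3%. The letters TCACNCCAC, a form of the sterol response element that SREBPs bind, were found in 1 of the 28 genes, SREBF2 itself, and in 1.39% of all genes.
SREBF2, chr22:41832962-41832990, plus strand: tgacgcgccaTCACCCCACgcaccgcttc
Capitals here mark the match to TCACNCCAC, whose first base lies 133 bases before the gene's start. These matches are descriptions of letters in a short window, and no match in the other genes says only that these letters were not in it.

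In the isoprenoid stem, PMVK, ACAT2 and FDPS were lower in both derivatives than in H460. PMVK, which adds the second phosphate to mevalonate, was at 115 CPM in H460, 59.4 in mdR-H460 and 68.6 in ldR-H460, which is 1.93-fold lower in mdR-H460 (1.86 to 2.01) and 1.67-fold lower in ldR-H460 (1.61 to 1.74). ACAT2, the cytosolic thiolase that joins acetyl-CoA units, was at 53.3, 32.5 and 35.4 CPM, 1.64-fold (1.55 to 1.73) and 1.51-fold (1.43 to 1.59) lower. Its annotated span overlaps TCP1 and SOD2 on the other strand, as MVK overlaps MMAB, SREBF1 overlaps RAI1 and ACACA overlaps C17orf78, and no source used here says whether the counting used strand. FDPS, which makes farnesyl diphosphate, was at 157, 118 and 107 CPM, 1.33-fold (1.29 to 1.37) and 1.47-fold (1.42 to 1.51) lower. For these 3 genes H460 stood alone as the high library and the derivatives lay nearer to each other.

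IDI1 and HMGCS1 had another order over all cells. IDI1, the isomerase that makes the starter unit for isoprenoid chains, was at 43.5 CPM in H460, 43.2 in mdR-H460 and 23.98 in ldR-H460, so that the long-term derivative was 1.81-fold lower than H460 (1.70 to 1.93) and 1.80-fold lower than mdR-H460 (1.69 to 1.92). HMGCS1, the synthase that commits acetoacetyl-CoA to the pathway, was at 8.76, 10.4 and 6.80 CPM, 1.53-fold lower in ldR-H460 than in mdR-H460 (1.36 to 1.74). Without the cluster of cells led by HSPA6 that is described below, the log2 ratio of ldR-H460 to mdR-H460 was -0.40 for IDI1, against -0.85 with it, and so still lower but no longer past 1.5-fold. That of HMGCS1 was 0.047 without the cluster, against -0.62 with it. The intermediate kinase MVK, at 5.08, 5.63 and 4.66 CPM, and the decarboxylase MVD, at 9.32, 7.44 and 7.84 CPM, differed by at most 1.25-fold from H460. On GRCh38 IDI1 lies at chr10:1039152-1049170, HMGCS1 at chr5:43289395-43313512 and PMVK at chr1:154924734-154936991, all on the minus strand.

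**Figure D1:**
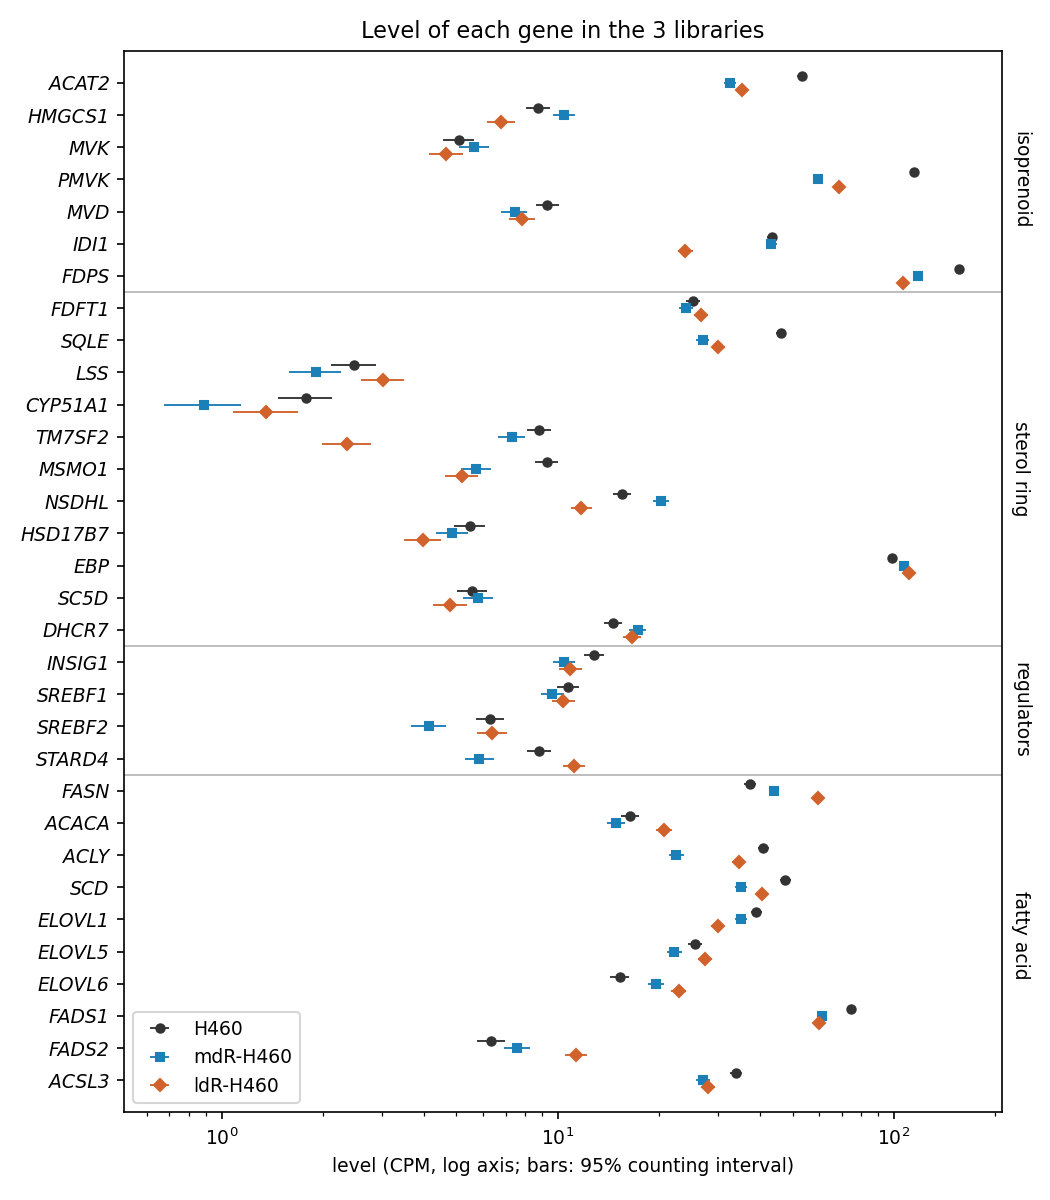
Level of each of the 32 genes in H460, mdR-H460 and ldR-H460 in CPM on a log axis, with 95% counting intervals, ordered by role. PMVK, ACAT2, FDPS and SQLE are highest in H460, FASN and FADS2 are highest in ldR-H460, and TM7SF2 is at 2.36 CPM in ldR-H460 against 8.82 in H460.

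SQLE, the epoxidase that opens the ring-forming branch, was at 46.2 CPM in H460, 27.0 in mdR-H460 and 30.1 in ldR-H460, 1.71-fold (1.61 to 1.82) and 1.54-fold (1.45 to 1.63) lower than in H460. The squalene synthase FDFT1 just before it was at 25.3, 24.2 and 26.7 CPM, with both ratio intervals against H460 including no difference. EBP, the sterol isomerase, was at 98.8, 107 and 111 CPM, and DHCR7, the reductase of the last step, at 14.6, 17.3 and 16.6 CPM. Both were 1.08-fold to 1.19-fold higher in the derivatives, but the sign of the ratio to H460 turned under at least 1 alternative setting for DHCR7 in both derivatives and for EBP in mdR-H460.

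TM7SF2, a sterol reductase of the inner nuclear and endoplasmic reticulum membranes, had the largest ratio of the 32 genes. It was at 8.82 CPM in H460, 7.29 in mdR-H460 and 2.36 in ldR-H460, 3.73-fold lower in ldR-H460 than in H460 (3.10 to 4.51) and 3.08-fold lower than in mdR-H460 (2.55 to 3.74). Its annotated span, chr11:65111845-65116384 on GRCh38, overlaps VPS51 on the same strand, so reads near the overlap could have been counted to either gene. MSMO1, which removes methyl groups from the sterol ring, was at 9.28, 5.73 and 5.18 CPM, 1.62-fold (1.42 to 1.84) and 1.79-fold (1.56 to 2.06) lower than in H460.

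NSDHL, which acts in the same demethylation, was at 15.5 CPM in H460, 20.3 in mdR-H460 and 11.8 in ldR-H460, and was 1.73-fold lower in ldR-H460 than in mdR-H460 (1.58 to 1.89). Its partner HSD17B7 was at 5.47, 4.86 and 3.97 CPM and the desaturase SC5D at 5.57, 5.79 and 4.80. LSS, the cyclase that folds the ring system, and CYP51A1, the demethylase that acts next, were at 0.89 to 3.03 CPM in every library, with 59 UMIs behind the lowest value, so their ratios are loose. CYP51A1 has 3 and HSD17B7 has 2 named pseudogenes, FDPS has 8, and SCD and FADS2 have 1 each, which could take or add reads. The span of CYP51A1 also overlaps the coding genes AC000120.2 and AC000120.3 on its own strand.

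Among the 4 regulators and transport proteins, INSIG1 and SREBF1 differed little between libraries. INSIG1, which holds SCAP back when sterol is plentiful and is itself an SREBP target, was at 12.8 CPM in H460, 10.4 in mdR-H460 and 10.9 in ldR-H460. SREBF1 was at 10.8, 9.64 and 10.4 CPM and SREBF2 at 6.30, 4.14 and 6.38 CPM, so SREBF2 was lower in mdR-H460 alone, 1.52-fold below H460 (1.303 to 1.78). It lay under the 10 CPM used for calls, and with the edgeR and DESeq2 scalings given below this ratio was within 1.5-fold. STARD4, a carrier that moves cholesterol between membranes, was at 8.79, 5.85 and 11.2 CPM, 1.91-fold higher in ldR-H460 than in mdR-H460 (1.68 to 2.17).

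In the fatty acid branch ldR-H460 was highest for several enzymes. FASN, the synthase that builds palmitate, was at 37.4 CPM in H460, 44.1 in mdR-H460 and 59.4 in ldR-H460, 1.59-fold higher in ldR-H460 than in H460 (1.51 to 1.67). FADS2, a front-end desaturase of polyunsaturated fatty acids, was at 6.33, 7.59 and 11.3 CPM, 1.79-fold higher (1.58 to 2.03), and ELOVL6, which elongates palmitate, was at 15.3, 19.6 and 22.9 CPM, 1.499-fold higher (1.38 to 1.63) and just under the 1.5-fold line. These 3 genes had the same order of libraries, H460 lowest and ldR-H460 highest. The span of FADS2 overlaps FEN1 on its own strand and FADS1 on the other, so their reads may not be fully separate.

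Other fatty acid genes did not share that order. ACLY, which supplies cytosolic acetyl-CoA from citrate, was at 40.9 CPM in H460, 22.5 in mdR-H460 and 34.5 in ldR-H460, which put mdR-H460 1.81-fold below H460 (1.70 to 1.93). ACACA, the carboxylase that makes malonyl-CoA, was at 16.4, 14.9 and 20.8 CPM. The stearoyl desaturase SCD was at 47.6, 35.2 and 40.5 CPM, the desaturase FADS1 at 74.6, 61.1 and 60.0, and the fatty acid activating enzyme ACSL3 at 33.9, 27.1 and 28.0. These last 3 were highest in H460, as was the elongase ELOVL1 at 39.0, 35.1 and 29.9 CPM, while ELOVL5 was at 25.6, 22.2 and 27.5 CPM.

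For counts of members, a gene had to reach 10 CPM in whichever library had more of it. By this rule 0 of 21 members were at least 1.5-fold higher in mdR-H460 than in H460 and 4 were lower (PMVK, SQLE, ACAT2 and ACLY), beside 4.61% and 17.2% of all 6402 genes. In ldR-H460 against H460, 2 of 22 were higher (FASN and FADS2) and 4 lower (IDI1, PMVK, SQLE and ACAT2), beside 8.57% and 18.9% of 6556 genes. In ldR-H460 against mdR-H460, 2 of 23 were higher (STARD4 and ACLY) and 3 lower (IDI1, NSDHL and HMGCS1), beside 8.92% and 10.1% of 6189 genes. The share of members that were lower in either derivative, 19.0% and 18.2%, was near that of all genes, and so the list as a whole did not stand apart in these counts. The comparisons of the derivatives with H460 share that library and are not independent.

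The median log2 ratio to H460 was -0.22 in mdR-H460 and -0.40 in ldR-H460 for the 18 sterol enzymes and -0.18 and -0.07 for the 10 fatty acid enzymes. It was -0.10 and -0.12 for all genes at 10 CPM or more, called the all-gene median here. The members had no such minimum: 10 and 9 of the 18 sterol enzymes and 9 and 10 of the 10 fatty acid enzymes reached 10 CPM. The sets thus differ in level. Of all genes at 1 CPM or more, 22.5% and 21.9% were at least 1.5-fold lower, against 17.2% and 18.9% at 10 CPM or more. Scaling moves all genes alike, and so the members' places above or below the all-gene median do not depend on it: 10 of 18 sterol enzymes lay below it in mdR-H460 and 13 of 18 in ldR-H460. Of the 10 fatty acid enzymes, 7 lay below it in mdR-H460 and 5 in ldR-H460, and 8 of 10 lay above it in ldR-H460 against mdR-H460. The edgeR and DESeq2 scalings raised ratios of mdR-H460 to H460 by 0.18 on the log2 scale, and those of ldR-H460 to H460 by 0.12 and 0.10. Under both, ACAT2 (-0.48 and -0.49) and SQLE (-0.50 and -0.51) were no longer past 1.5-fold in ldR-H460, which left the 2 genes IDI1 and PMVK as lower, with no share of all genes computed under these scalings. ACAT2 was no longer past it in mdR-H460 either (-0.53 and -0.54), and ELOVL6 came to pass it in ldR-H460 (0.70 and 0.69).

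**Figure D2:**
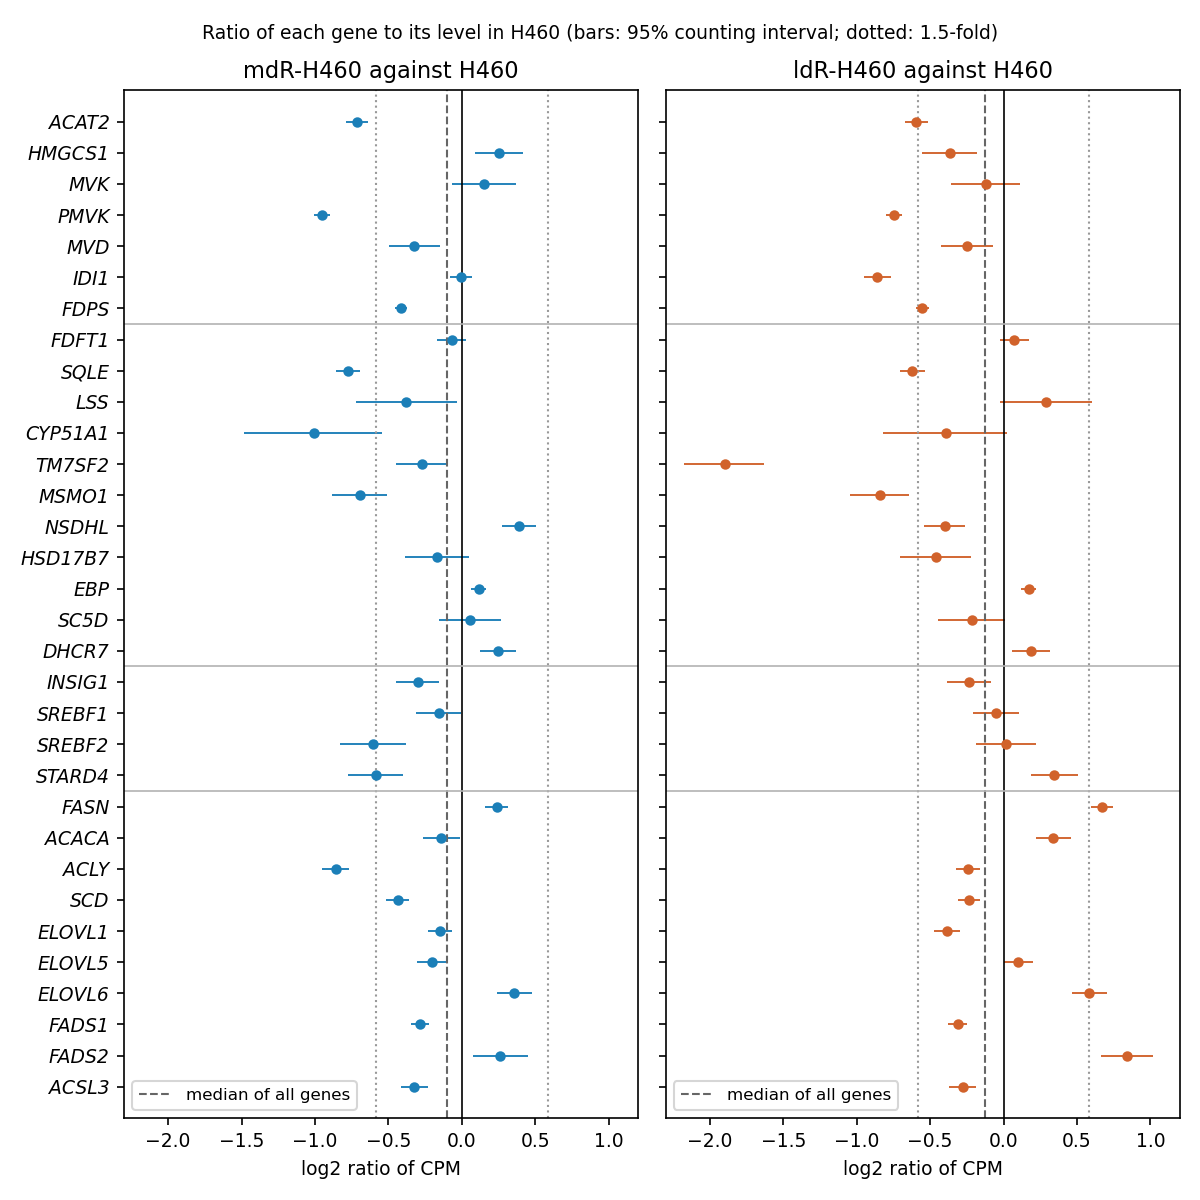
Log2 ratio of each gene in mdR-H460 (left) and ldR-H460 (right) to its level in H460, with 95% counting intervals, the median of all genes at 10 CPM or more (dashed) and the 1.5-fold lines (dotted). In ldR-H460 the isoprenoid genes lie left of zero while FASN, ELOVL6 and FADS2 lie at the right, at 0.67, 0.58 and 0.84. Both panels use the same H460 library.

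Summed, the 18 sterol enzymes took 625 CPM in H460 (619 to 632), 499 in mdR-H460 (493 to 504) and 471 in ldR-H460 (466 to 477). Most of that difference was in the isoprenoid stem, at 392, 276 and 254 CPM, while the ring enzymes took 234, 222 and 217. The fatty acid enzymes summed to 337 CPM (333 to 341), 289 (285 to 294) and 335 (330 to 339), so H460 and ldR-H460 did not differ beyond counting error and mdR-H460 was lower. This order depends on the scaling: the log2 ratio of the fatty acid sum to H460 was -0.22 in mdR-H460 and -0.0097 in ldR-H460 on UMI totals, -0.035 and 0.11 with the edgeR scaling, and -0.043 and 0.095 with that of DESeq2. The sterol sum stayed below H460 under both, at -0.14 and -0.29 with edgeR and at -0.15 and -0.30 with DESeq2. There were 0.539 fatty acid enzyme UMIs for each sterol enzyme UMI in H460 (0.530 to 0.548), 0.581 in mdR-H460 (0.570 to 0.591) and 0.710 in ldR-H460 (0.698 to 0.723). This ratio needs no library scaling, and it was highest in the long-term derivative with no overlap of the 3 counting intervals.

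Lists of neighbouring genes were measured in the same way, and their counts stand beside the 4.61% of all genes higher and 17.2% lower in mdR-H460 and the 8.57% and 18.9% in ldR-H460. Of 7 genes for SREBP processing none passed 1.5-fold in either derivative against H460: the escort SCAP was at 5.45, 6.05 and 7.54 CPM, the proteases MBTPS1 and MBTPS2 at 10.8, 9.61 and 15.1 and at 15.2, 10.8 and 12.8, and the ubiquitin ligase RNF139 at 16.1, 12.7 and 12.7. Among 11 genes of the isoprenoid branches, 9 reached 10 CPM, of which 0 were higher and 1 (GGPS1) lower in mdR-H460, and 1 (COQ2) higher and 2 (GGPS1 and RABGGTA) lower in ldR-H460. GGPS1, which makes geranylgeranyl diphosphate, was at 42.2, 24.99 and 22.4 CPM, 1.69-fold (1.59 to 1.80) and 1.88-fold (1.76 to 2.01) lower, and RABGGTA, which attaches it to Rab proteins, at 21.4, 18.6 and 11.1. COQ2, of ubiquinone synthesis, was at 16.7, 24.7 and 25.4 CPM.

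Of 10 genes of sterol uptake, transport and storage, 6 reached 10 CPM, with 0 higher and 1 (LRP8) lower in mdR-H460 and none past 1.5-fold in ldR-H460. The lipoprotein receptors LRP8 and VLDLR were at 22.9, 12.2 and 18.6 and at 3.22, 1.49 and 1.44 CPM, and NPC1, which exports cholesterol from lysosomes, at 6.15, 5.22 and 3.64. Of 5 genes of the sterol-sensing liver X receptors and efflux, only NR1H2, NR1H3 and MYLIP were measured. MYLIP, a liver X receptor target that marks lipoprotein receptors for breakdown, was at 13.01, 4.32 and 4.37 CPM, 3.01-fold (2.63 to 3.45) and 2.98-fold (2.59 to 3.43) lower than in H460. NR1H2, one of the receptors, was at 28.7, 22.4 and 16.5 CPM.

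Within the cultures, IDI1 and HMGCS1 were concentrated in a small set of cells. Clustering of all cells without the 32 genes gave 7 clusters, 1 of which was led by HSPA6, an inducible heat shock gene, with the stress transcription factor gene DDIT3 among its leading genes. It held 71 H460 cells (1.57%), 166 mdR-H460 cells (3.22%) and 1 ldR-H460 cell. IDI1 was at 588 CPM in the H460 cells of this cluster and 37.3 in all other H460 cells, 15.8-fold higher (14.2 to 17.5), and at 697 against 31.6 CPM in mdR-H460, 22.1-fold higher (20.3 to 23.9). HMGCS1 was at 107 against 7.64 CPM in H460, 14.1-fold higher (11.0 to 17.8), and at 227 against 6.58 in mdR-H460, 34.5-fold higher (29.5 to 40.3). The cluster thus held 15.2% of all IDI1 UMIs in H460 and 28.1% in mdR-H460, and 13.8% and 38.0% of the HMGCS1 UMIs, with 1.13% and 1.74% of the UMIs of all genes.

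Of the sterol enzymes at 10 CPM or more, 3 of 11 were at least 1.5-fold higher there in H460 (IDI1, HMGCS1 and SC5D) and 4 of 12 in mdR-H460 (the same 3 and DHCR7). At least 1.5-fold lower were 5 of 11 and 6 of 12. Beside them, 29.4% of all genes were higher and 37.3% lower in H460, and 40.6% and 26.8% in mdR-H460. SC5D was at 10.7 against 5.52 CPM in H460 (1.95-fold, 0.834 to 3.88) and at 10.3 against 5.71 in mdR-H460 (1.81-fold, 0.926 to 3.20), both within counting error. INSIG1 was at 45.7 against 12.5 CPM in H460, 3.66-fold higher (2.52 to 5.16), and at 27.5 against 10.1 in mdR-H460, 2.72-fold higher (1.84 to 3.88). DHCR7 was 2.13-fold higher in mdR-H460 (1.52 to 2.89), with 1.29-fold in H460 (0.703 to 2.18). Of the same stem, FDPS and PMVK were lower. FDPS was at 36.3 against 158 CPM in H460, 4.36-fold lower (3.00 to 6.62), and 1.72-fold lower in mdR-H460 (1.38 to 2.17). PMVK was 2.97-fold (2.07 to 4.44) and 2.25-fold (1.58 to 3.31) lower. EBP, a ring enzyme, was 2.56-fold (1.78 to 3.82) and 2.62-fold (1.97 to 3.55) lower. MVK was at 5.37 against 5.07 CPM in H460 and 2.58 against 5.68 in mdR-H460. MVD had 1 UMI in the H460 cells and was at 10.3 against 7.39 CPM in mdR-H460 (1.40-fold, 0.717 to 2.46).

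Of 9 fatty acid enzymes at 10 CPM or more, 2 were higher in the cluster in H460 (ACACA and ACSL3) and 4 lower (FASN, ACLY, ELOVL6 and FADS1), and in mdR-H460 1 was higher (ACSL3) and 5 lower (the same 4 and SCD). The shares of all genes were 29.4% higher and 37.3% lower in H460, and 40.6% and 26.8% in mdR-H460. FASN was at 6.71 against 37.7 CPM in H460, 5.62-fold lower (2.40 to 17.3), and at 6.88 against 44.7 in mdR-H460, 6.50-fold lower (3.29 to 15.1). FADS1 was 4.31-fold (2.52 to 8.10) and 3.79-fold (2.42 to 6.30) lower and ACLY 3.07-fold (1.67 to 6.40) and 2.03-fold (1.19 to 3.83) lower. ELOVL6 had 0 UMIs in the H460 cells of the cluster, at least 3.84-fold lower when set at 3 UMIs. SCD was at 53.7 against 47.6 CPM in H460, within counting error, and 2.75-fold lower in mdR-H460 (1.67 to 4.93). ACSL3 was at 53.7 against 33.7 CPM in H460, 1.59-fold higher (1.14 to 2.18), and at 44.7 against 26.8 in mdR-H460, 1.67-fold higher (1.24 to 2.20). ACACA was at 25.5 against 16.3 CPM in H460 (1.56-fold, 0.938 to 2.46) and at 13.8 against 14.9 in mdR-H460, both within counting error.

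**Figure D3:**
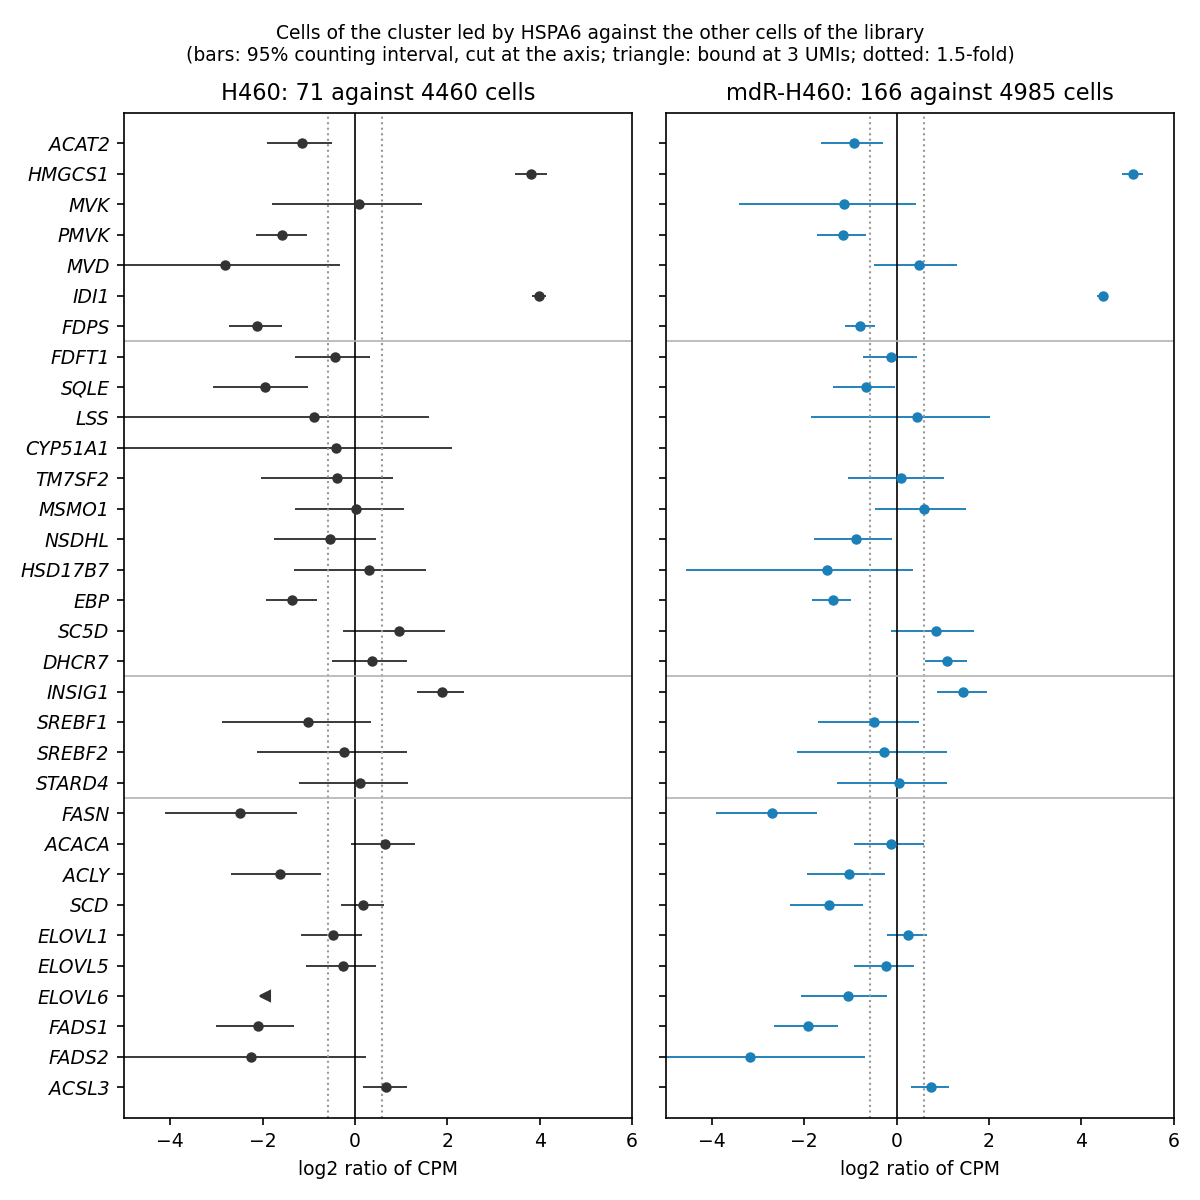
Log2 ratio of each gene in the cells of the cluster led by HSPA6 to the other cells of the same library, for H460 and mdR-H460, with 95% counting intervals. IDI1 and HMGCS1 lie at 3.98 and 3.81 in H460 and at 4.46 and 5.11 in mdR-H460, while FASN and FADS1 lie left of zero in both; ELOVL6 in H460 is a bound, and CYP51A1 in mdR-H460 is not drawn because it had 0 UMIs in the cluster.

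The summed sterol enzymes were 1.51-fold higher in the cluster in H460 (1.40 to 1.62) and 2.49-fold higher in mdR-H460 (2.36 to 2.63), and the fatty acid sum 1.53-fold (1.31 to 1.79) and 1.65-fold (1.44 to 1.91) lower. Without IDI1 and HMGCS1, the other 16 sterol enzymes were lower there, at 242 against 577 CPM in H460 (2.39-fold, 2.06 to 2.78) and at 285 against 448 in mdR-H460 (1.57-fold, 1.41 to 1.76). IDI1 and HMGCS1 together thus made the sterol sum the higher one. In all, 6 of 22 members were at least 1.5-fold higher and 10 lower in H460, beside 29.4% and 37.3% of 7214 genes, and 6 of 22 higher and 11 lower in mdR-H460, beside 40.6% and 26.8% of 7105 genes. The genes other than the members were used to make the clusters.

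Other measures also differed in these cells. Their median was 9655 UMIs per cell in H460 against 14752 in the other cells, and 6469.5 against 12053 in mdR-H460, and the mitochondrial share was 3.11% against 4.82% and 3.63% against 5.24%. Of the cluster's cells with a phase call, 86.4% and 83.5% were called G1, against 34.3% and 33.0% of the others. In cells called G1 alone, a comparison chosen after seeing the data, IDI1 was 12.4-fold higher in H460 (10.8 to 14.3) and 26.2-fold in mdR-H460 (22.8 to 30.1), and HMGCS1 12.0-fold (8.76 to 16.3) and 56.4-fold (43.0 to 74.9). In G1 cells 6 of 24 members were higher and 12 lower in H460, beside 32.3% and 32.3% of 7069 genes, and 7 of 23 higher and 9 lower in mdR-H460, beside 46.6% and 23.0% of 7013 genes. Median UMIs per cell were nearer there, at 12197 against 13924 and 9342 against 10101. The part of depth and mitochondrial share in these differences was not tested.

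Even inside the cluster the 2 genes were uneven. With every cell thinned at random to 5000 UMIs, IDI1 had a median of 1 UMI, a 10th percentile of 0 and a 90th of 11 over the 59 H460 cells of the cluster that were deep enough, with a highest count of 36, and 25 cells had none. Over 97 such mdR-H460 cells the median was 1, the 90th percentile 10 and the highest 51, and 37 cells had none. More than 5 IDI1 UMIs, a line chosen after seeing the data, were found in 11 and 23 of these cells, which held 71.7% and 76.2% of the cluster's IDI1 UMIs. HMGCS1 had none in 43 of the H460 cells (72.9%) and 56 of the mdR-H460 cells (57.7%), and 2 and 3 cells with more than 5 held 42.2% and 26.4% of its thinned UMIs in the cluster, so its folds there rest on few cells. For IDI1, among the 3791, 3783 and 4520 other thinned cells of the 3 libraries there were 0 above that line, and the highest counts were 3, 5 and 2.

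The same 2 genes were set apart by their spread over cells. The variance of thinned counts divided by their mean, which is near 1 for sampling alone, was 4.18 for IDI1 in H460, 7.36 in mdR-H460 and 0.98 in ldR-H460, and 1.94, 2.90 and 1.03 for HMGCS1. The median over the 19 members at 10 CPM or more in all 3 libraries was 1.04, 1.04 and 1.02, and over 4253 genes in the same range of levels it was 1.03, 1.04 and 1.02. The highest value of any other member was 1.17, for FDPS in H460.

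The summed levels also differed with the called phase of the cell cycle. Sterol enzymes were at 530 CPM in G1 cells of H460, 668 in S and 667 in G2M cells, at 392, 515 and 549 CPM in mdR-H460, and at 384, 496 and 478 CPM in ldR-H460. Fatty acid enzymes were at 297, 359 and 347 CPM, at 238, 297 and 315, and at 285, 347 and 342. G1 cells were lowest for both sums in all 3 libraries. They made up 35.1%, 34.3% and 17.9% of the called cells, and within G1 cells the order of H460 above both derivatives for sterol enzymes was the same as over all cells. In H460 the sterol sum and the median over single genes went in opposite directions. Over the 12 sterol enzymes of H460 at 10 CPM or more, the median log2 ratio of S and G2M to G1 cells was -0.079, against 0.051 for all genes. In mdR-H460 this median was 0.32 over 11 enzymes, against 0.073, and in ldR-H460 0.33 over 9, against 0.16. The H460 cells included the cluster led by HSPA6, mostly called G1. With it, IDI1 was at 48.2 CPM in G1, 42.6 in S and 38.5 in G2M cells. Without it, IDI1 was at 38.1 CPM in S and G2M cells and 35.0 in G1 cells, and HMGCS1 was under 10 CPM. Also without it, FDFT1, TM7SF2, MSMO1, NSDHL and DHCR7 were lower in S and G2M cells, NSDHL and DHCR7 within counting error. The H460 median was not computed without the cluster.

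EBP and TM7SF2 differed in opposite directions between phases. EBP was at 59.9 CPM in G1 and 122 in G2M cells of H460, at 52.3 and 128 in mdR-H460, and at 77.6 and 112 in ldR-H460, which is 2.03-fold (1.89 to 2.19), 2.45-fold (2.26 to 2.64) and 1.44-fold (1.33 to 1.57) higher in G2M. TM7SF2 was at 11.7 and 5.56 CPM, at 14.4 and 3.97, and at 6.06 and 1.72. In G2M cells it was thus lower by a factor of 2.11 in H460 (1.65 to 2.73), of 3.62 in mdR-H460 (2.87 to 4.60) and of 3.52 in ldR-H460 (2.32 to 5.37). Within G1 cells TM7SF2 was still lower in ldR-H460 than in H460, with a log2 ratio of -0.95 where all cells gave -1.90. Taking S and G2M cells together against G1 cells, 2 of 23 members (ACAT2 and EBP) were at least 1.5-fold higher and 1 (TM7SF2) lower in H460, beside 12.2% and 4.64% of 6535 genes. In mdR-H460 5 of 22 (ACAT2, FDPS, EBP, FASN and ELOVL6) were higher and 2 (HMGCS1 and TM7SF2) lower, beside 17.6% and 13.2% of 6101 genes. Without the cluster led by HSPA6, a setting added after seeing the data, HMGCS1 was at 6.995 CPM in S and G2M cells and 4.82 in G1 cells of mdR-H460, 1.45-fold higher (1.12 to 1.91) instead of lower, and FASN was 1.45-fold higher (1.31 to 1.60), no longer past 1.5-fold. In ldR-H460 1 of 22 (EBP) was higher and 0 lower, beside 13.8% and 5.36% of 6197 genes.

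**Figure D4:**
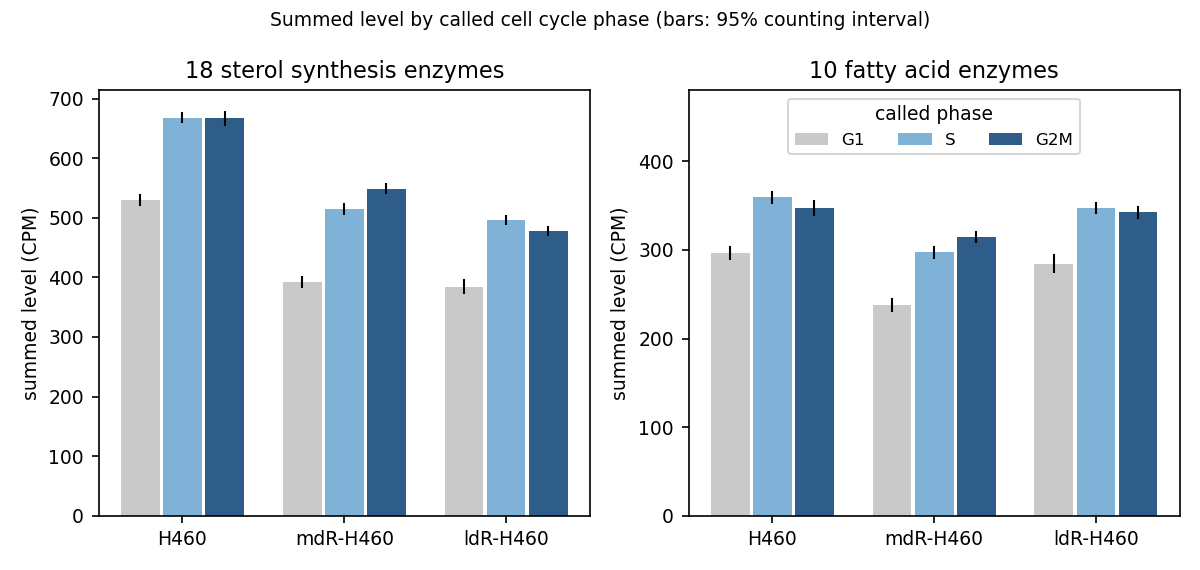
Summed CPM of the 18 sterol enzymes (left) and the 10 fatty acid enzymes (right) in cells called G1, S or G2M of each library, with 95% counting intervals. In every library the G1 bar is the lowest, at 530, 392 and 384 CPM for the sterol sum.

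Each derivative held a second large cluster, mostly of cells called G1, with lower sums. In mdR-H460 the 1671 cells of a cluster led by the fibrinogen genes FGG and FGA had a sterol sum of 358 CPM against 531 in the 2540 cells of the main cluster, 1.48-fold lower (1.44 to 1.52), and a fatty acid sum of 246 against 309, 1.26-fold lower (1.21 to 1.30). In ldR-H460 the 862 cells of a cluster led by ANKRD1 and IGFBP7 had 385 against 484 CPM in 3761 cells, 1.26-fold lower (1.21 to 1.30), and 264 against 347, 1.31-fold lower (1.26 to 1.37). G1 calls made up 81.7% against 5.05% of the cells in the first pair and 64.8% against 7.84% in the second, and median UMIs per cell were 8202 against 18642 and 8868 against 13353. Phase and depth thus moved with these differences, and their part was not tested.

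TM7SF2 was again the exception in these clusters, at 15.3 against 4.46 CPM in mdR-H460 (3.42-fold higher, 2.84 to 4.13) and 7.12 against 1.54 CPM in ldR-H460 (4.61-fold higher, 3.24 to 6.55). EBP was at 54.8 against 127 CPM and at 73.2 against 117 CPM, 2.32-fold (2.17 to 2.49) and 1.60-fold (1.47 to 1.74) lower. At 10 CPM or more, 1 of 21 members (TM7SF2) was higher and 4 (ACAT2, FDPS, EBP and ELOVL6) lower in the mdR-H460 pair, beside 12.8% and 21.9% of 6063 genes, and 0 of 22 higher and 3 (EBP, ACACA and FADS1) lower in the ldR-H460 pair, beside 10.6% and 20.9% of 6341 genes.

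Cell-to-cell correlation was then described over the 9 sterol and 9 fatty acid enzymes at 10 CPM or more in all 3 libraries, on log2(count + 1) in cells thinned to 5000 UMIs (3850, 3880 and 4521 cells). The cells of a library share its preparation, and thinning leaves few UMIs of each gene per cell. The median Pearson r over 36 pairs of sterol enzymes was 0.015 in each of the 3 libraries, over 36 pairs of fatty acid enzymes 0.0030, 0.0087 and 0.0081, and over 81 pairs between the sets 0.0078, 0.0059 and 0.0039. Over all pairs of 4253 genes in the same range of levels it was 0.0019, 0.0022 and 0.0015, with 95th percentiles of 0.033, 0.037 and 0.029. These values are small, and in counts this sparse they are a description and not a finding.

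The pairs with the highest mean r were ACAT2 with FDPS (0.113, 0.042 and 0.048), IDI1 with DHCR7 (0.058, 0.121 and 0.015, and 0.032, 0.022 and 0.015 without the cluster led by HSPA6), ACAT2 with EBP (0.051, 0.053 and 0.059) and FDPS with EBP (0.052, 0.070 and 0.041). The lowest was IDI1 with FASN, at -0.039, -0.049 and 0.001. IDI1 with HMGCS1, which lies outside the 19 genes because HMGCS1 is under 10 CPM in H460 and ldR-H460, had r of 0.149, 0.245 and -0.009. Without the cluster led by HSPA6 it was -0.002, 0.028 and -0.008, near 0 in each library, and within the cluster r was 0.487 over 59 cells of H460 and 0.193 over 97 of mdR-H460. Within the same cells of H460 and mdR-H460, IDI1 with DHCR7 had r of 0.276 and 0.419 and IDI1 with INSIG1 0.147 and 0.027. HMGCS1 with INSIG1 had -0.094 and -0.068 there.

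**Figure D5:**
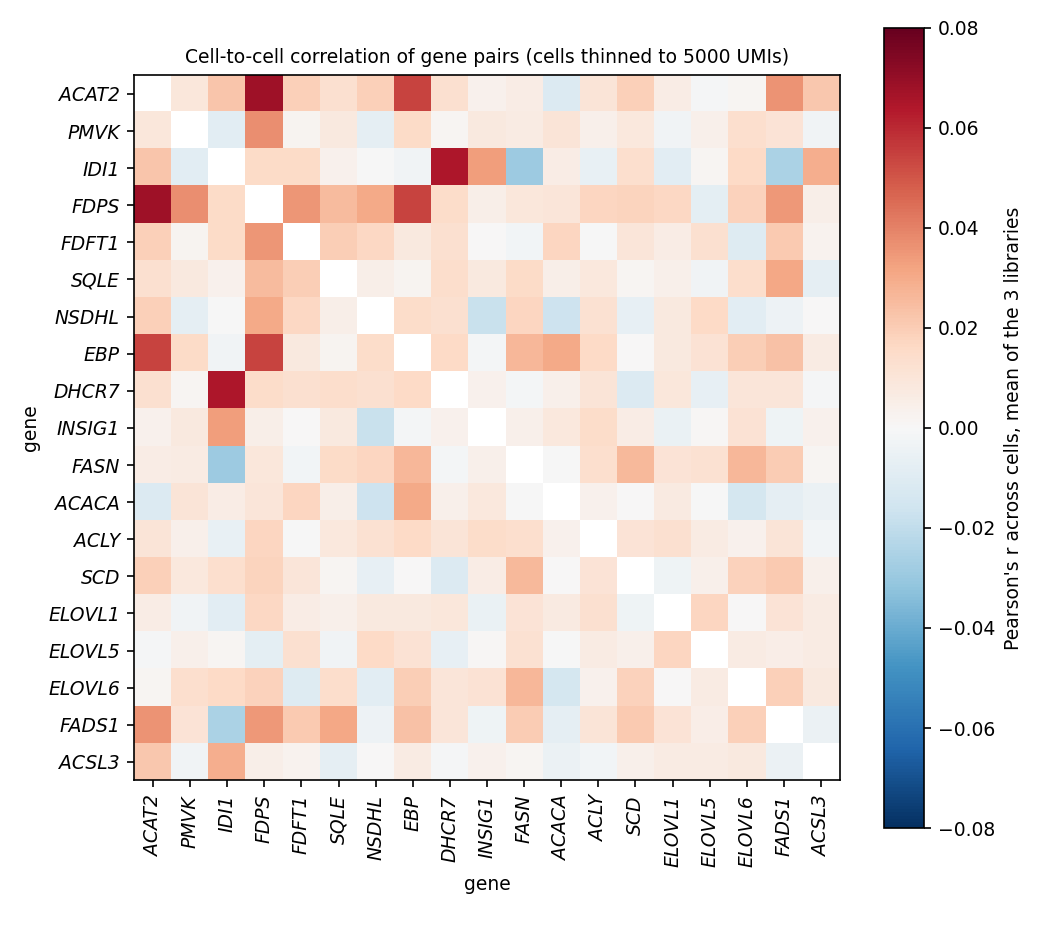
Pearson's r across cells of each pair of the 19 genes at 10 CPM or more in all 3 libraries, as the mean of the 3 libraries, on a colour scale from -0.08 to 0.08. The darkest squares are ACAT2 with FDPS, IDI1 with DHCR7 and the pairs of EBP with ACAT2 and FDPS; most others lie near 0.

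Summed per cell, sterol and fatty acid enzymes had r of 0.082, 0.044 and 0.037, and the isoprenoid and ring sums 0.077, 0.082 and 0.049. The sterol sum had larger values with the S phase score (0.179, 0.163 and 0.151) and the G2M score (0.138, 0.209 and 0.096), and 0.027, 0.148 and 0.111 with the cell's UMI count before thinning. Of 1749 other genes at 50 CPM or more in all 3 libraries, those with the highest mean r with the sterol sum were HSP90AA1 (0.210), H2AFZ (0.200), TUBA1B (0.173), HMGB1 (0.158), TUBB4B (0.157), UBE2S (0.144), HSP90AB1 (0.141), HSPE1 (0.141), HN1 (0.136) and SRSF7 (0.135). They include chaperones and genes of chromatin and mitosis. The 32 members were not among the candidates. The lowest were the ribosomal protein genes RPS18 (-0.184), RPS19 (-0.183), RPS14 (-0.157), RPS27 (-0.147) and RPS23 (-0.146).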

How the data were processed

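Single-cell 3′ RNA libraries of 3 cultures, 1 each, were analysed from the tables of UMI counts per gene and cell that the authors deposited after their quality filter. Cell Ranger 3.0.2, Seurat 3.0 and the build GRCh38 are named, per the submitters' processing notes, without a role for each. The annotation release and strand setting are not given in the sources used here. All deposited values are whole counts without normalization, and 0 columns were left unmapped. Symbols missing from 1 table were taken as 0 in that library.

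UMIs were summed per library and divided by its total to give CPM, with exact Poisson intervals, and ratios with exact binomial-based intervals, at 95%. A count of 0 was set at a floor of 3 UMIs for bounds. A call of higher or lower needed a 1.5-fold ratio and 10 CPM in whichever library had more. No p-value was computed. For correlations and phases, cells were thinned to 5000 UMIs, which left out 681, 1271 and 435 cells (H460, mdR-H460, ldR-H460). Clusters (Leiden, resolution 0.5, 2000 variable genes, 30 components, scanpy 1.11.5) were made without the 32 members, and no doublet caller was run. Alternative library scales came from edgeR 4.0.16 (TMM) and DESeq2 1.42.0 (size factors) in R 4.3.3. Intervals were tested on counts simulated with Poisson error, which is the error they assume. That test does not cover uneven spread of a gene's UMIs between cells.

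The members, gene lists and comparisons were chosen with earlier results of these data known. Named are all 32 members, of each of 7 other lists the 2 measured genes with the largest log2 ratio to H460 in each derivative, and the 10 genes with the highest and 5 with the lowest correlation with the sterol sum. Genes named only beside a count, genes that the closing section names in the cluster led by HSPA6, that cluster itself and FGG, FGA, ANKRD1, IGFBP7 and DDIT3 were singled out after their values were seen. Gene positions and overlaps come from GENCODE annotation on GRCh38, and promoter sequences from RefSeq on GRCh38.p14.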

Additional observations from a re-analysis of the deposited data

How the results depend on the processing

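No replicates exist, so no setting leaves one out. No paired analysis was possible because each group has 1 library. Over all alternatives, 52 counts of members stayed within 1.5 times and 14 did not, 52 list medians stayed within the median counting interval of their members, 7 moved beyond it and 7 changed sign, and 43 correlations stayed and 11 moved. Of the 32 members, 20, 25 and 20 kept the sign of their ratio for mdR-H460 to H460, ldR-H460 to H460 and ldR-H460 to mdR-H460. Members under 10 CPM, with as few as 59 UMIs, are limited by depth.

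With edgeR's TMM scaling the median log2 ratio to H460 was -0.038 for sterol enzymes in mdR-H460, and turned to 0.0064 and 0.050 for fatty acid enzymes in mdR-H460 and ldR-H460. With DESeq2's size factors it was -0.046, -0.0016 and 0.037. Under both, 2 members were lower in ldR-H460 than in H460 and 1 was higher than in mdR-H460. Without mitochondrial and ribosomal protein UMIs 4 members were higher in ldR-H460 than in mdR-H460. With equal weight per cell the fatty acid median of mdR-H460 was -0.27, 1 member was higher in mdR-H460 than in H460, and 4 in ldR-H460 than in mdR-H460. With no CPM minimum, 8 members were lower in mdR-H460 than in H460 and 5 higher in ldR-H460 than in mdR-H460, beside 22.5% and 14.6% of all genes at 1 CPM or more. For the counts in the other settings of this section the share of all genes was not computed. Those counts therefore do not set the list apart from other genes.

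The sterol median of ldR-H460 to mdR-H460, -0.10 over all cells, turned to 0.064 in thinned cells, 0.0054 in cells under 4000 detected genes, 0.0041 without both the HSPA6 cluster and one of low-UMI cells led by PLCG2 and S100A8 (427, 723 and 270 cells, median 457 UMIs), and 0.0045 without the HSPA6 cluster alone, a setting added after seeing the data. In each of these last 2 settings, 1 member was lower in ldR-H460 than in mdR-H460, and the log2 ratio of HMGCS1 turned from -0.62 to 0.038 and 0.047. In cells called G1, the fatty acid median was -0.31 in mdR-H460 and 0.43 in ldR-H460 to mdR-H460, the sterol median in ldR-H460 was -0.57, CYP51A1 turned to -0.56 in ldR-H460 against mdR-H460, 8 members were lower in ldR-H460 than in H460, 1 higher in mdR-H460 than in H460 and 5 higher in ldR-H460 than in mdR-H460. The share of all genes was not computed in these settings, so the counts are not a result about the list. The cause of these differences was not tested.

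Without thinning, the median r of sterol pairs was 0.072 in H460 and 0.054 in mdR-H460, that of fatty acid pairs 0.055 and 0.048, and r of the 2 sums was 0.266, 0.189 and 0.204 in the 3 libraries. In G1 cells r of the sums was 0.122, 0.0017 and 0.0050, and with cells thinned to 2000 UMIs it was 0.0053 in ldR-H460. The cluster contrast in G1 cells alone, also added after seeing the data, moved 14 ratios beyond their intervals, left 53 within them and turned none of them round. The comparison of S and G2M with G1 cells without the HSPA6 cluster, added likewise, turned HMGCS1 in mdR-H460 from -1.38 to 0.54.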

Other observations

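Among lipid genes outside the synthesis list, those of storage and breakdown had their own orders of libraries. Counts of such genes past 1.5-fold stand beside the 4.61% of all genes higher and 17.2% lower in mdR-H460 than in H460, and the 8.57% and 18.9% in ldR-H460. MGLL, the lipase that releases fatty acid from monoglycerides, was at 9.73 CPM in H460, 12.2 in mdR-H460 and 1.62 in ldR-H460, 6.00-fold lower in ldR-H460 than in H460 (4.85 to 7.50). PLIN2, a coat protein of lipid droplets, was at 13.6, 33.6 and 14.5 CPM, 2.47-fold higher in mdR-H460 alone (2.29 to 2.68). LPIN1, a phosphatidate phosphatase, was at 4.52, 7.52 and 11.7 CPM, and DGAT2, of triglyceride synthesis, at 3.19, 1.07 and 1.32. Of 12 glycerolipid and droplet genes 7 reached 10 CPM, with 1 (PLIN2) higher and 0 lower in mdR-H460 and 2 (LPIN1 and HILPDA) higher and 1 (PLIN3) lower in ldR-H460.

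ME1, a source of NADPH for fatty acid synthesis, was at 39.6 CPM in H460, 55.2 in mdR-H460 and 74.4 in ldR-H460, 1.88-fold higher in ldR-H460 (1.79 to 1.97). ELOVL4, an elongase of very long chains, was at 9.09, 4.10 and 3.95 CPM and ACACB, the mitochondrial carboxylase, at 1.56, 0.75 and 0.96. Of 16 fatty acid supply and elongation genes 9 reached 10 CPM, with 2 (FADS3 and FABP5) higher and 0 lower in mdR-H460 and 2 (ME1 and SLC25A1) higher and 1 (ACSL4) lower in ldR-H460. In fatty acid oxidation, CPT1A, the carnitine transferase of the outer mitochondrial membrane, was at 8.17, 2.85 and 6.25 CPM, 2.87-fold lower in mdR-H460 (2.42 to 3.40). ETFB, an electron carrier subunit, was at 197, 301 and 336 CPM and the dehydrogenase ACADVL at 81.4, 87.6 and 52.0. Of 16 such genes 10 reached 10 CPM, with 1 (ETFB) higher and 0 lower in mdR-H460 and 1 (ETFB) higher and 1 (ACADVL) lower in ldR-H460.

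In the cells of the cluster led by HSPA6, MGLL was at 68.5 against 9.06 CPM in H460 and 86.9 against 10.9 in mdR-H460, PLIN2 at 99.4 against 12.6 and 71.4 against 32.9, PNPLA2, a triglyceride lipase, at 45.7 against 11.2 and 36.1 against 7.96, and MYLIP at 88.6 against 12.1 and 28.4 against 3.90. Counts in these cells stand beside 29.4% of all genes higher and 37.3% lower in H460, and 40.6% and 26.8% in mdR-H460. Of 7 glycerolipid and droplet genes at 10 CPM or more, 4 were higher and 2 lower in H460, and 6 higher and 1 lower in mdR-H460. AGPAT2, an acyltransferase of phosphatidate synthesis, was lower in both, at 34.9 against 56.5 CPM and 32.7 against 60.8. Of the supply and elongation genes 1 of 8 was higher and 5 lower in H460, and 1 of 10 higher and 3 lower in mdR-H460. The citrate carrier SLC25A1 was at 6.71 against 43.4 and 24.1 against 43.9 CPM, HACD3, of chain elongation, at 38.9 against 86.9 and 47.3 against 102, and FABP5, a fatty acid binding protein, at 239 against 359.7 and 265 against 587. Fibroblast markers gave 0 genes at 10 CPM in either comparison. Of 4 epithelial markers at 10 CPM or more, 0 were higher and 3 lower in H460, and 1 was higher and 0 lower in mdR-H460. Those lower in H460 were KRT19 at 285 against 1712 CPM, KRT18 at 486 against 1086 and KRT8 at 295 against 461. The higher one in mdR-H460 was KRT7, at 288 against 182 CPM. These genes were used to make the clusters, and they are given as values alone.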
